A study of Mus musculus with 12 samples.

Results

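Secreted growth and trophic factors other than *Igf1* that microglia may release were compared between ARG1+ and ARG1- microglia. The 9 members, *Hgf*, *Tgfa*, *Hbegf*, *Pdgfa*, *Pdgfb*, *Vegfa*, *Vegfb*, *Gdf15* and *Bdnf*, were taken by symbol from the 55487 genes of the count table. All 9 had at least 1 count, and 8 passed the filter on low counts. *Hgf* and *Tgfa* were higher in ARG1+ microglia, with no overlap between the populations. The other 6 members tested did not pass the threshold. *Bdnf* had a single count across all libraries.

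Microglia, the resident macrophages of the brain, were sorted from the basal forebrain and striatum of mice of the YARG strain at postnatal day 13. This strain carries a YFP reporter that defines the ARG1+ and ARG1- populations. The sort took CX3CR1+ cells without the macrophage marker CD206 and split them by YFP. Bulk RNA was sequenced in 12 libraries, with 3 from each of 4 groups, namely ARG1- females, ARG1+ females, ARG1- males and ARG1+ males. All mice, including those that gave the ARG1- cells, carried the reporter. Each library pooled tissue from several mice of 1 sex, so variation between single mice was not measured. YFP reports reporter protein at the moment of sorting. The study's methods describe sorting both populations from pooled tissue. The labels do not say which libraries came from the same pool or litter, and they number the libraries without pairing them, so p-values measure the spread between these libraries.

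Growth factors are secreted proteins that act on receptors at the surface of nearby cells. HGF is released as an inactive precursor, is cut by serine proteases such as hepsin and signals through the receptor tyrosine kinase MET. TGF-alpha and HB-EGF are made as membrane proteins, are shed by ADAM proteases and bind EGFR. PDGF ligands act on oligodendrocyte precursors and mural cells, VEGF ligands act on endothelial cells and neuropilins, and GDF15 and BDNF act through GFRAL and TrkB.

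Total counts per library ranged from 30954399 to 60625170 in the ARG1- population and from 28356659 to 46569667 in the ARG1+ population. Between 17846 and 19844 genes were detected in ARG1- libraries and between 19018 and 21734 in ARG1+ libraries. Mitochondrial transcripts took 0.247% to 0.636% of counts in ARG1- and 0.147% to 0.396% in ARG1+ libraries, and the part of this in the results was not tested. Levels are in CPM, counts scaled to the size of each library after normalization by the trimmed mean of M-values. Microglial marker genes summed to between 52196 and 68003 CPM in ARG1- libraries and to between 40281 and 51980 CPM in ARG1+ libraries. All 10 of these markers were detected, with 1 higher and 7 lower in ARG1+ microglia. Of 16908 genes tested, 2682 differed between the populations at an adjusted p under 0.05 (15.9%), with 6.44% higher and 9.42% lower in ARG1+ microglia. Adjusted p-values, unless another tool is named, are those of edgeR (quasi-likelihood), corrected by the Benjamini-Hochberg method across the whole table.

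The stretches before the annotated starts of *Hgf* and *Tgfa* are shown because these genes were the members that moved. Both are from RefSeq on GRCm38.p6, cover 250 bases before the start and read 5′ to 3′ on the plus strand, which is the coding strand of both genes. Capitals mark matches to any of 9 motifs searched on both strands. The first window lies at chr5:16553245-16553494 and the second at chr6:86194972-86195221.
*Hgf*: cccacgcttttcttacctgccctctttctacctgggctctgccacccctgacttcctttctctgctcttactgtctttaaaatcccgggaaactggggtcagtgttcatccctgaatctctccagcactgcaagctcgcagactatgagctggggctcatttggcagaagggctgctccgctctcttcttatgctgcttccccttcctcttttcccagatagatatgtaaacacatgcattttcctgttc
*Tgfa*: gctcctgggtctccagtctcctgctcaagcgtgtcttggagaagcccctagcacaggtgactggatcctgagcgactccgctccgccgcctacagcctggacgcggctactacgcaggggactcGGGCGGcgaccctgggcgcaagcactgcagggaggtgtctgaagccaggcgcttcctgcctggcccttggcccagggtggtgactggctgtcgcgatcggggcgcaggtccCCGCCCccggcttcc
The *Hgf* window held 50.8% G and C, 4 CpG dinucleotides and none of the 9 motifs. A second RefSeq start of *Hgf* had a window at chr5:16553651-16553900, not printed here, with 51.2% G and C, 5 CpG dinucleotides and also none of the motifs. The *Tgfa* window held 69.2% G and C and 19 CpG dinucleotides, against medians of 52.4% and 6 over 32851 promoter windows. Its matches were 2 GC boxes, 1 on the plus strand at bases -126 to -121 from the start and 1 on the minus strand at bases -15 to -10. The GC box (GGGCGG) was in 32.7% of all windows, the CCAAT box (CCAAT) in 33.8% and the TATA box (TATAAA) in 12.4%. The CRE (TGACGTCA) was in 1.55% of windows, the AP-1 motif (TGANTCA) in 6.75% and the MiT/TFE E-box (TCACGTG) in 3.13%. The hypoxia response core (ACGTG), whose letters also lie inside that E-box, was in 16.6%. PU.1 letters (GAGGAAGT) were in 2.44% and C/EBP letters (TTGCNNCAA) in 1.74%. A match is a description of the letters and not a measured binding site. Windows were found for 7 of the 9 members.

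*Hgf* (ENSMUSG00000028864, chr5:16553495-16620152, plus strand, GRCm38), the ligand of MET, was close to absent from ARG1- microglia. In the ARG1- population 5 of 6 libraries had 0 counts and male replicate 14 had 1 count. ARG1+ females had 132, 49 and 50 counts in replicates 7, 8 and 15, and ARG1+ males had 40, 42 and 27 counts in replicates 11, 12 and 16. Every ARG1+ library therefore lay above every ARG1- library, and ARG1+ female replicate 7 stood above the other 5. In CPM the lowest, median and highest values were 0, 0 and 0.0296 in ARG1- and 0.800, 1.17 and 4.18 in ARG1+ libraries. The mean level was 0.00493 ± 0.0121 CPM in ARG1- and 1.64 ± 1.29 CPM in ARG1+ microglia (SD, n = 6 each). The pooled counts of 340 and 1, set against the normalized totals, gave a ratio of 359 with a 95% counting interval of 63.9 to 14208, which covers counting error only. The fitted log2 fold change was 7.57 (SE 1.03, edgeR adjusted p = 9.13e-04), and its size depends on how counts of 0 are handled. An exact two-sided permutation test on log2(CPM + 0.5) gave p = 0.00216, the smallest that 6 against 6 libraries allow. That value follows from the lack of overlap and adds nothing to it. Across the 12 fits that left out 1 library the log2 fold change ran from 7.2 to 9.11, the highest without ARG1- male replicate 14, and the adjusted p from 0.00151 to 0.00406. *Hgf* passed the filter on low counts only through its ARG1+ libraries, so its p-values, also those within each sex, are descriptions. *Hgf* is among the genes that the study itself showed as raised on these samples, so the direction is no independent evidence. In bulk samples, fewer cells with the transcript and less transcript per cell cannot be told apart.

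The *Hgf* difference was present in both sexes. The mean was 2.42 CPM in ARG1+ females and 0.864 CPM in ARG1+ males. The edgeR contrasts within each sex, which shared 1 estimate of spread over all 12 libraries, gave log2 fold changes of 9.52 (adjusted p = 0.00937) in females and 6.04 (adjusted p = 0.0311) in males. Within those contrasts 6.76% of all genes tested in females and 5.13% in males were called, 2.6% and 2.03% as higher. When the male libraries were fitted alone the adjusted p was 0.0719. The test of the difference between the sexes in the ARG1 effect gave an adjusted p of 0.591. In the libraries numbered 1 to 12, *Hgf* ranged from 0.882 to 4.18 CPM in ARG1+ and was 0 in all 4 ARG1- libraries. In those numbered 13 to 16, the ARG1+ libraries ranged from 0.800 to 1.42 CPM and the ARG1- libraries from 0 to 0.0296 CPM.

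*Gm43489*, a gene model on the same strand, shares 484 exonic bases with *Hgf* and had 0 counts in ARG1- and 34 counts in ARG1+ libraries. The genes whose levels ran most alike *Hgf* over the 12 libraries were *Gm44116* (Pearson r = 0.989), *Trim6* (0.987) and *Gm17816* (0.986), computed on log2 CPM with a prior count of 2. *Trim6*, a member of the tripartite motif family of ubiquitin ligases, went from 1 count in ARG1- to 364 counts in ARG1+ libraries. These values describe libraries that share the split into 2 populations.

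*Tgfa* (ENSMUSG00000029999, chr6:86195223-86275719, plus strand), which encodes TGF-alpha, had the highest mean level per exon length of the 9 members in both populations. ARG1- females had 105, 123 and 67.6 CPM in replicates 1, 2 and 13, and ARG1- males had 119, 91.9 and 96.9 CPM in replicates 5, 6 and 14. ARG1+ females had 187, 164 and 143 CPM in replicates 7, 8 and 15, and ARG1+ males had 146, 171 and 176 CPM in replicates 11, 12 and 16. The lowest ARG1+ library, female replicate 15, was above the highest ARG1- library, female replicate 2. The means were 101 ± 20.2 and 164 ± 17.3 CPM (SD, n = 6 each), a fitted fold of 1.63 with a 95% interval of 1.32 to 2.03. The log2 fold change was 0.71 (SE 0.14, edgeR adjusted p = 0.00628). The exact two-sided permutation test gave p = 0.00216, the smallest possible, which again follows from the lack of overlap. In the 12 fits with 1 library left out, the log2 fold change stayed between 0.61 and 0.79 and the adjusted p between 0.00679 and 0.0175.

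The *Tgfa* change had nearly the same size in females and males. The log2 fold change was 0.74 in females (adjusted p = 0.0578) and 0.68 in males (adjusted p = 0.0824), neither past the threshold in the edgeR contrasts of 3 against 3 libraries. The difference between these effects was -0.06 on the log2 scale, with a 95% interval of -0.70 to 0.58. Male and female levels in ARG1+ libraries averaged 164 and 165 CPM. In the libraries numbered 13 to 16, *Tgfa* averaged 82.3 CPM in ARG1- and 159 CPM in ARG1+, against 110 and 167 CPM in those numbered 1 to 12. *Gm43917*, a gene model on the opposite strand, shares 118 exonic bases with *Tgfa*, and the library kit does not mark strand. It averaged 3.27 CPM in ARG1- and 5.70 CPM in ARG1+ microglia (edgeR adjusted p = 0.0513) and was also the second gene by likeness to *Tgfa* (r = 0.954). The first was *Soat1* (r = 0.983), which esterifies cholesterol, and the third was *Atp6v1a* (r = 0.952), a subunit of the vacuolar proton pump.

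**Figure D1:**
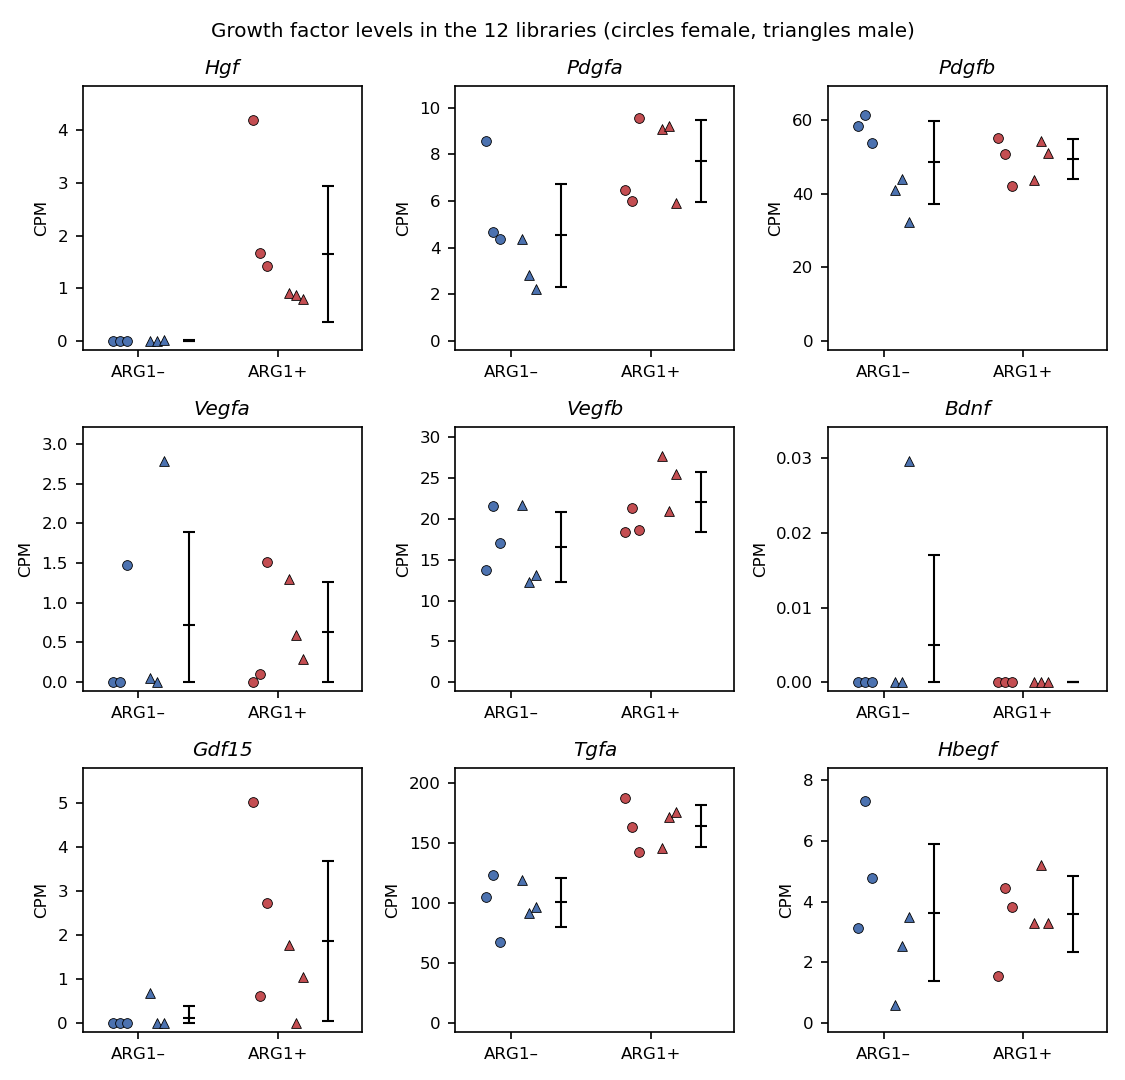
CPM (vertical axes, each on its own linear scale from 0) of the 9 growth factors in ARG1- (blue) and ARG1+ (red) libraries, circles for females and triangles for males, with the mean and SD of 6 libraries beside each group and the lower bar stopped at 0. *Hgf* and *Tgfa* separate the populations without overlap, with *Hgf* at most 0.0296 CPM in ARG1- and at least 0.800 CPM in ARG1+ libraries.

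Of the 8 members tested, 2 were called higher and 0 lower, against 6.44% and 9.42% of all genes tested. *Hgf* and *Gdf15* passed the filter on low counts only through their ARG1+ libraries, so the counts and the median given here for the list are descriptions and support nothing about it. The same 2 had all 6 ARG1+ libraries above all 6 ARG1- libraries, against 3.48% of all genes tested, and 0 had them all below, against 6.56%. At an unadjusted p under 0.05 there were 4 of the 8 members, the other two being *Pdgfa* and *Gdf15*, against 29.1% of all genes tested. DESeq2's Wald test called the same 4 at an adjusted p under 0.05, where it called 22.3% of all genes tested. The unadjusted exact permutation p was under 0.05 for 5 members, *Vegfb* being the fifth, and for 33.3% of all genes tested. The median log2 fold change of the 8 members was 0.56, and that of all genes tested was 0.06. Members are not replicates of each other, and no test was made on the list.

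*Hbegf* (ENSMUSG00000024486, minus strand of chromosome 18), the other EGFR ligand among the members, did not pass the threshold. The lowest, median and highest levels were 0.608, 3.31 and 7.31 CPM in ARG1- and 1.55, 3.55 and 5.23 CPM in ARG1+ libraries. The ARG1+ range lay inside the ARG1- range. The means were 3.64 ± 2.26 and 3.61 ± 1.25 CPM (SD, n = 6 each). The log2 fold change was 0.10, with a 95% interval of -0.98 to 1.18 and an edgeR adjusted p of 0.921, which spans folds of 0.507 to 2.26. Its sign turned in 4 of the alternative fits, none of them past the threshold.

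*Pdgfa* (ENSMUSG00000025856, minus strand of chromosome 5), whose product drives oligodendrocyte precursors, was higher on average in ARG1+ libraries but did not pass the threshold. ARG1- females had 8.58, 4.69 and 4.39 CPM in replicates 1, 2 and 13, and ARG1- males had 4.39, 2.84 and 2.25 CPM in replicates 5, 6 and 14. ARG1+ libraries ranged from 5.93 to 9.57 CPM with a median of 7.78 CPM. Thus 5 of 6 ARG1- libraries lay below all ARG1+ libraries, and ARG1- female replicate 1 was the exception. The means were 4.52 ± 2.21 and 7.71 ± 1.75 CPM (SD, n = 6 each), and the log2 fold change was 0.83 (SE 0.32, edgeR adjusted p = 0.101). Without ARG1- female replicate 1 it was 1.06 with an adjusted p of 0.0338, and DESeq2's Wald test on all libraries gave an adjusted p of 0.0382. An antisense gene, *6330403L08Rik*, shares 813 exonic bases with *Pdgfa* and had 158 counts in ARG1- and 121 counts in ARG1+ libraries, where *Pdgfa* had 1059 and 1755.

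*Pdgfb* (ENSMUSG00000000489, minus strand of chromosome 15), a ligand known for recruiting pericytes, was at similar levels in the populations. The lowest, median and highest levels were 32.4, 49.0 and 61.5 CPM in ARG1- and 42.1, 50.9 and 55.1 CPM in ARG1+ libraries. The ARG1+ libraries lay within the ARG1- range. The log2 fold change was 0.06 with a 95% interval of -0.26 to 0.37 (edgeR adjusted p = 0.842), which spans folds of 0.837 to 1.29.

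The levels of *Pdgfb* by sex did not pass the test either. ARG1- females had 58.4, 61.5 and 53.8 CPM, and ARG1- males had 41.1, 44.1 and 32.4 CPM. The log2 difference of males from females was -0.56 (SE 0.17, unadjusted p = 0.00717 from edgeR), but the adjusted p was 0.396. In ARG1+ libraries the corresponding value was 0.01, with means of 49.3 CPM in females and 49.7 CPM in males. The difference of the ARG1 effect between sexes had an edgeR adjusted p of 0.506.

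*Vegfa* (ENSMUSG00000023951, minus strand of chromosome 17), the main angiogenic VEGF, was sparse and uneven. ARG1- females had 0, 0 and 87 counts in replicates 1, 2 and 13, and ARG1- males had 2, 0 and 94 counts in replicates 5, 6 and 14. ARG1+ females had 0, 3 and 53 counts in replicates 7, 8 and 15, and ARG1+ males had 57, 28 and 10 counts in replicates 11, 12 and 16. Nearly all ARG1- counts came from replicates 13 and 14. The means were 0.720 ± 1.17 and 0.632 ± 0.633 CPM (SD, n = 6 each), with a log2 fold change of -0.13 and a 95% interval of -3.53 to 3.26 (edgeR adjusted p = 0.968). Among libraries numbered 1 to 12 the mean was 0.0132 CPM in ARG1- and 0.496 CPM in ARG1+, and among those numbered 13 to 16 it was 2.13 and 0.903 CPM. The labels do not say what the numbers mark. With a term for the libraries numbered 13 to 16 the log2 fold change was 2.66, with an adjusted p of 0.267.

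*Vegfb* (ENSMUSG00000024962, minus strand of chromosome 19), a ligand of FLT1, was detected at steady levels in all libraries. The lowest, median and highest levels were 12.2, 15.4 and 21.7 CPM in ARG1- and 18.4, 21.1 and 27.7 CPM in ARG1+ libraries. The ranges overlapped, and ARG1- female replicate 2 and ARG1- male replicate 5 lay within the ARG1+ range. The means were 16.6 ± 4.28 and 22.1 ± 3.73 CPM (SD, n = 6 each). The log2 fold change was 0.40, with a 95% interval of -0.02 to 0.83 (edgeR adjusted p = 0.198).

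*Gdf15* (ENSMUSG00000038508, minus strand of chromosome 8), a stress-induced factor of the TGF-beta superfamily, was found mostly in ARG1+ libraries. ARG1- libraries had 26 counts in male replicate 5 and 0 counts in the other 5. ARG1+ females had 158, 18 and 96 counts in replicates 7, 8 and 15, and ARG1+ males had 78, 0 and 35 counts in replicates 11, 12 and 16. The groups overlapped through ARG1- male replicate 5 and ARG1+ male replicate 12. The mean level was 0.115 ± 0.281 CPM in ARG1- and 1.86 ± 1.81 CPM in ARG1+ microglia (SD, n = 6 each). Pooled counts of 385 and 26 gave a ratio of 15.6 with a 95% counting interval of 10.5 to 24.2. That interval leaves out the spread between libraries. The edgeR log2 fold change of 4.79 (SE 2.13) had an adjusted p of 0.156. It was 9.28 with an adjusted p of 0.0203 without ARG1- male replicate 5, and DESeq2's Wald test on all libraries gave 5.73 with an adjusted p of 0.0119.

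*Bdnf* (ENSMUSG00000048482, plus strand of chromosome 2), the ligand of TrkB, had 1 count in ARG1- male replicate 14 and 0 counts in the other 11 libraries. A level under the limit that 0 counts allow, which ranged from 0.0511 to 0.102 CPM per library, was not detectable at this depth. It did not pass the filter and was not tested. The antisense model *Gm45346* that shares 896 exonic bases with it had 0 counts.

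**Figure D2:**
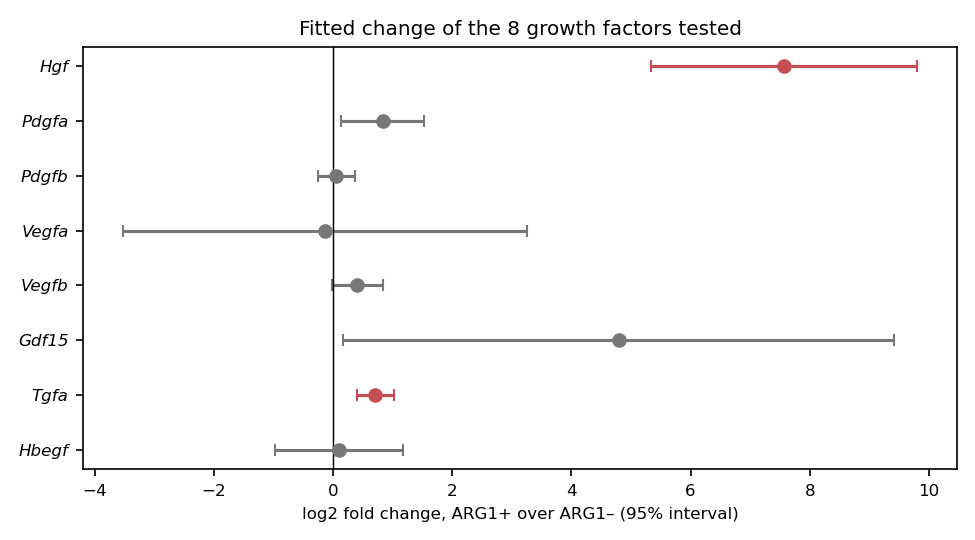
Fitted log2 fold change (horizontal axis, ARG1+ over ARG1-) of the 8 growth factors tested, with a 95% interval worked back from the edgeR F test, in red where the adjusted p was under 0.05. The intervals of *Hgf* and *Tgfa* lie above 0, as do those of *Pdgfa* and *Gdf15*, which did not pass the adjustment over all genes.

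Sex differences among the members did not pass the test. By edgeR, 0 members differed between males and females in either population, where 16 genes (0.0946%) in ARG1- and 6 genes (0.0355%) in ARG1+ microglia did. At an unadjusted p under 0.05 there were 2 members in ARG1- libraries, *Pdgfb* and *Gdf15*, and 0 in ARG1+ libraries, against 10% and 3.12% of all genes tested, and DESeq2 called 0. The ARG1 effect differed between the sexes for 0 members and for 0 of 16908 genes by edgeR (0%), with *Pdgfb* and *Gdf15* at an unadjusted p under 0.05, and DESeq2 called 0 members. For all genes, 9.32% had an unadjusted p under 0.05 in this test.

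Levels were compared between members per kilobase of exon. In ARG1- microglia the order by mean was *Tgfa* (15.5 CPM per kb), *Pdgfb* (11.7), *Vegfb* (10.3), *Pdgfa* (1.45), *Hbegf* (0.753), *Vegfa* (0.168), *Gdf15* (0.0619), *Bdnf* (0.000794) and *Hgf* (0.000687). Of neighbours in this order, only *Vegfb* and *Pdgfa* had ranges over libraries that did not overlap. In ARG1+ microglia the order was *Tgfa* (25.3 CPM per kb), *Vegfb* (13.8), *Pdgfb* (11.9), *Pdgfa* (2.47), *Gdf15* (1.0), *Hbegf* (0.746), *Hgf* (0.229), *Vegfa* (0.147) and *Bdnf* (0). Here the neighbours without overlap were *Tgfa* and *Vegfb*, and *Pdgfb* and *Pdgfa*. *Tgfa* lay above 80.2% of tested genes in ARG1- and 89.2% in ARG1+ microglia on this scale. *Hgf* in ARG1+ microglia lay above 11.1% of tested genes, so its level was low even where it was present.

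**Figure D3:**
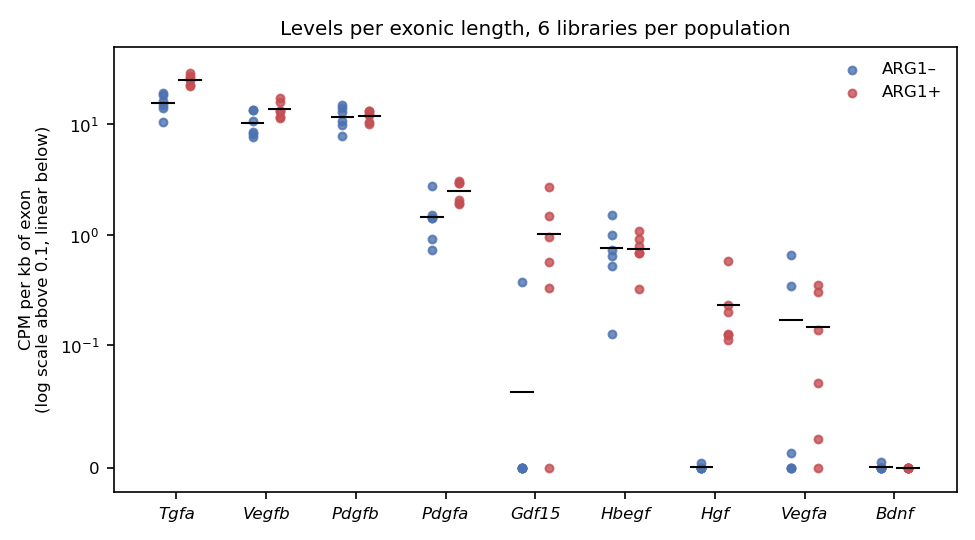
Level per exon length (vertical axis, CPM per kb of exon, log scale above 0.1 and linear below) of the 9 members in 6 ARG1- (blue) and 6 ARG1+ (red) libraries, with bars at the means, in the order of the ARG1+ means. *Tgfa* is highest in both populations (means 15.5 and 25.3), and *Hgf* stays low in ARG1+ libraries (mean 0.229).

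Genes of the same pathways were read from 8 lists of 150 genes in all, of which 99 were tested. In the ARG1+ population 10 were higher (10.1%) and 3 lower (3.03%), against 6.44% and 9.42% of all genes tested, and the counts of single lists that follow are to be read against the same shares. *Adam8* and *Egln3*, among the 10, passed the filter on low counts only through their ARG1+ libraries, so these shares are descriptions. Receptors showed 1 higher and 0 lower of 9 tested, out of 16 listed, with a median log2 fold change of 0.60. *Nrp2*, a neuropilin that binds VEGF and semaphorin ligands, ranged from 7.37 to 22.6 CPM in ARG1- and from 45.0 to 89.0 CPM in ARG1+ libraries, with no overlap (log2 fold change 1.90, SE 0.27, adjusted p = 0.00106). *Nrp1*, its paralog, averaged 190 ± 51.7 and 285 ± 67.3 CPM (log2 fold change 0.60, adjusted p = 0.0573), with overlapping ranges. *Met*, the HGF receptor, had 187 counts in ARG1- libraries, all in female replicate 1, and 324 counts over all 6 ARG1+ libraries, 251 of them in male replicate 12. The other 5 ARG1+ libraries had between 2 and 36 *Met* counts. The *Met* means were 0.935 ± 2.29 and 1.23 ± 2.01 CPM (adjusted p = 0.845). *Sort1*, which sorts BDNF, averaged 202 and 234 CPM (adjusted p = 0.556), and the BDNF receptor gene *Ntrk2* averaged 2.26 and 1.05 CPM (adjusted p = 0.509).

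The receptor genes that mark other cell types were low. *Pdgfra*, a marker of oligodendrocyte precursors, averaged 1.59 and 0.125 CPM in ARG1- and ARG1+ libraries (adjusted p = 0.121). *Pdgfrb*, a mural cell marker, averaged 1.33 and 0.183 CPM (adjusted p = 0.173). The endothelial VEGF receptor genes *Flt1* and *Kdr* averaged 0.551 and 1.13 CPM in ARG1- and 2.38 and 3.76 CPM in ARG1+ libraries (adjusted p = 0.289 and 0.305). *Egfr* had 4 counts and *Ngfr* 1 count over all 12 libraries, and *Erbb2* and *Erbb3* had 38 and 64. *Gfral*, *Ret* and *Erbb4* had 0 counts in every library. None of these 7 passed the filter.

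Among genes that activate HGF or bind its activators, 2 of 7 tested were higher and 0 lower, with a median log2 fold change of 0.46. *Hpn*, which encodes hepsin, rose from 8.73 ± 2.40 to 17.3 ± 2.56 CPM without overlap (log2 fold change 0.99, adjusted p = 0.0101). *Plaur*, the urokinase receptor, rose from 6.61 ± 4.86 to 18.8 ± 5.73 CPM (log2 fold change 1.55, adjusted p = 0.0139). *Plau*, which encodes urokinase itself, averaged 3.37 ± 2.26 CPM in ARG1- and 1.43 ± 0.658 CPM in ARG1+ libraries and did not pass the threshold (log2 fold change -1.20, adjusted p = 0.166). Of genes for shedding and precursor cleavage, 3 of 12 tested were higher and 0 lower, with a median of 0.31. *Adam8* had 0 counts in ARG1- libraries and 1.46 to 5.61 CPM in ARG1+ libraries (adjusted p = 7.69e-04). *Adam17*, the main sheddase of TGF-alpha, rose from 412 ± 40.5 to 536 ± 86.8 CPM (log2 fold change 0.38, adjusted p = 0.0430). *Adam9* rose from 122 ± 20.1 to 179 ± 29.7 CPM (log2 fold change 0.55, adjusted p = 0.0204).

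Other ligands of the members' families showed no call by edgeR, 0 of 5 tested, with 1 at an unadjusted p under 0.05, and 11 of the 23 listed had 0 counts in every library. Among 16 further secreted factors tested, 0 were higher and 2 lower. *Ptn*, which encodes pleiotrophin, fell from 5.40 ± 2.82 to 0.808 ± 0.548 CPM (log2 fold change -2.61, adjusted p = 0.0414). *Manf*, an endoplasmic reticulum stress factor that can be secreted, fell from 87.4 ± 7.0 to 53.1 ± 9.78 CPM (log2 fold change -0.72, adjusted p = 0.00381). Both had no overlap between the populations.

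Genes that carry or respond to signals known to raise some of the members formed the last 3 lists, each with 2 genes called, against 15.9% of all genes tested. In the hypoxia list both of them, out of 15 tested, were higher. They were *Hif1a*, a subunit of the hypoxia-inducible factor, at 140 ± 25.6 and 212 ± 34.4 CPM (adjusted p = 0.0181), and *Egln3*, a prolyl hydroxylase, with 5 and 233 counts (adjusted p = 0.0404). In the integrated stress response list of 16 tested, *Atf3*, a stress-induced transcription factor, rose (log2 fold change 0.99, adjusted p = 0.0401) and *Phgdh*, the first enzyme of serine synthesis, fell (log2 fold change -0.90, adjusted p = 0.00101). The median log2 fold change of that list was -0.13. Of its genes not called, *Nupr1*, *Ddit3* and *Atf4* had log2 fold changes of -0.69, -0.38 and -0.28. *Eif2ak4* and *Ppp1r15a* went the other way, at 0.76 and 0.38. In the immediate early list of 20 tested, *Atf3*, which is on both lists, and *Egr1* were higher, and the median log2 fold change was 0.35. *Egr1*, a transcription factor that cell stimulation induces, rose from 7.87 ± 3.45 to 19.4 ± 2.97 CPM without overlap (adjusted p = 0.00825).

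**Figure D4:**
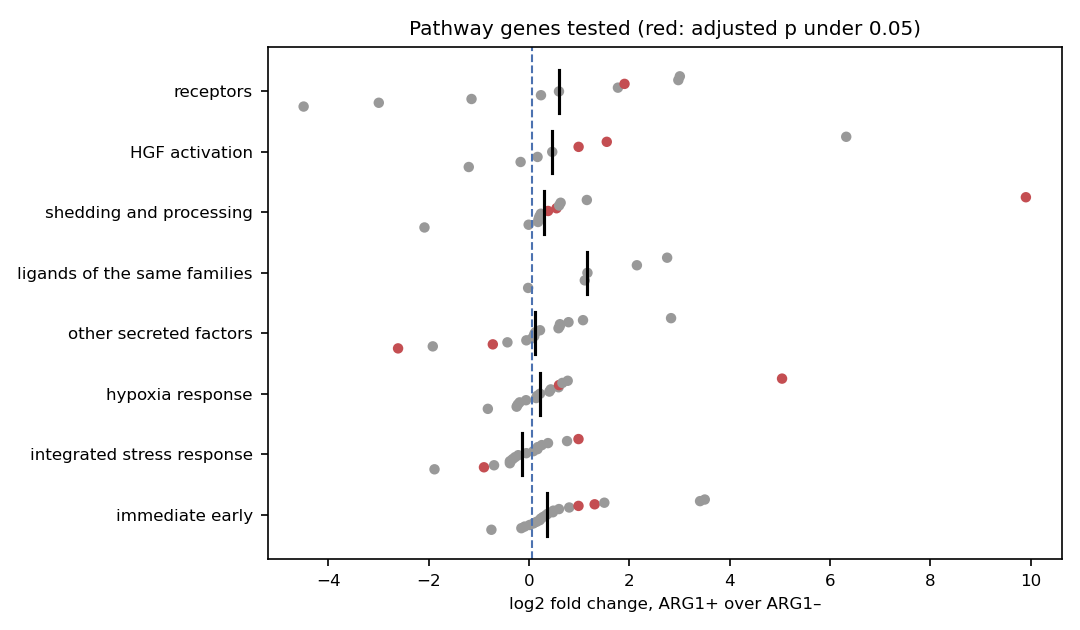
Log2 fold change (horizontal axis, ARG1+ over ARG1-) of each tested gene in the 8 pathway lists, with called genes in red, the median of each list as a black bar and the median of all genes tested (0.06) as a dashed line. Of the 99 genes, 10 were called higher and 3 lower, with *Adam8* farthest to the right.

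Markers of other cell types that could carry these transcripts were measured in the same libraries. The 10 border macrophage markers summed to between 297 and 516 CPM in ARG1- and between 403 and 841 CPM in ARG1+ libraries. Nearly all of this was *Stab1*, with means of 239 and 431 CPM (edgeR adjusted p = 0.0277), and *Mrc1*. Of 8 tested, 3 were higher, namely *Stab1*, *Clec4n* and *Folr2*, and 0 lower, against 6.44% and 9.42% of all genes tested. *Clec4n*, with 0 counts in ARG1- libraries, passed the filter on low counts only through its ARG1+ libraries, so this count is a description. *Mrc1*, which encodes the CD206 used in the sort, averaged 121 and 147 CPM (adjusted p = 0.371). *Cd163* and *Lyve1* had 0 counts in ARG1- libraries and 21 and 14 counts in ARG1+ libraries, from 1 and 2 libraries. *Cbr2* averaged 3.40 and 1.98 CPM in ARG1- and ARG1+ libraries and *F13a1* 2.79 and 1.92 CPM. In the other direction, *Ms4a7* averaged 0.353 and 2.73 CPM (edgeR adjusted p = 0.176) and *Pf4* 0.563 and 1.03 CPM. For *Ms4a7*, 5 ARG1+ libraries lay above all ARG1- libraries. None of *Cbr2*, *F13a1*, *Ms4a7* and *Pf4* passed the threshold. The part of these markers in the *Hgf* and *Tgfa* results was not tested.

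The 8 monocyte markers summed to between 5.12 and 14.1 CPM in ARG1- and 3.70 and 7.76 CPM in ARG1+ libraries, with *Chil3* at 0 counts. Of 4 tested, *Fn1* was higher (0 and 168 counts) and *Plac8* lower, against 6.44% and 9.42% of all genes tested. *Fn1* passed the filter on low counts only through its ARG1+ libraries, so its call is a description. Endothelial markers summed to between 32.7 and 58.1 CPM and between 44.8 and 83.5 CPM, most of it *Pecam1* (means 36.5 and 53.1 CPM, adjusted p = 0.0913), with *Cldn5* and *Emcn* at 0 counts in every library. *Cdh5* averaged 1.22 and 0.751 CPM, *Slco1a4* 0.950 and 0.280 CPM and *Tie1* 1.40 and 0.192 CPM in ARG1- and ARG1+ libraries, of which *Tie1* was not tested and the others did not pass the threshold. Mural and fibroblast markers summed to at most 3.39 CPM in ARG1- and 0.997 CPM in ARG1+ libraries, with *Kcnj8*, *Abcc9*, *Col1a1*, *Dcn* and *Lum* at 0. *Col1a2*, a collagen gene of fibroblasts, had 2 counts in ARG1- and 80 counts in ARG1+ libraries (adjusted p = 0.0170). It too passed the filter only through its ARG1+ libraries, and its part in the *Hgf* result was not tested. Sums in ARG1- and ARG1+ libraries were 180 to 224 and 130 to 152 CPM for astrocyte markers, most of it *Slc1a3* (means 176 and 131 CPM, adjusted p = 0.00817), and 259 to 383 and 170.5 to 263 CPM for oligodendrocyte markers. Among the astrocyte markers, *Gfap* averaged 1.17 and 3.22 CPM and *Aldh1l1* 0.399 and 0.983 CPM, and neither passed the threshold. For neuron markers the sums were 6.95 to 17.0 and 2.31 to 9.23 CPM, and for oligodendrocyte precursor markers 0.502 to 25.2 and 0 to 11.6 CPM.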

How the data were processed

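RNA was converted to cDNA with a SMART-Seq v4 kit and made into libraries with Nextera XT, which does not mark strand. The authors deposited raw counts per gene for 12 libraries. The submitters' processing notes name bcl2fastq 2.20.0, STAR 2.6.1d, featureCounts 1.5.1 and DESeq2 1.28.1 and the builds GRCm38 and mm10, and how reads shared by overlapping genes were counted is not given in the sources used here. All count columns were used (0 unused). IDs were matched to GENCODE M21 on GRCm38 (55227 of 55487 matched). Groups came from the labels.

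Counts were tested in R 4.3.3 with edgeR 4.0.16 (quasi-likelihood F test, filterByExpr on the 4 groups, TMM factors, sex and ARG1 status as terms, Benjamini-Hochberg threshold 0.05). Sex contrasts, contrasts within each sex and their difference came from a fit of 4 group means. Intervals are at 95%, and the limit that 0 counts allow is 3 counts. Each SE is the log2 fold change divided by the square root of the F statistic. Intervals of fitted changes were built from this SE with the t distribution, so for sparse genes they can disagree with the test. For the sex difference in the *Hgf* effect the interval ran from -6.92 to -0.047, with an unadjusted edgeR p of 0.081. Exact permutation tests enumerated 924 splits on log2(CPM + 0.5). The count test was tested on simulated data of 16184 genes made from these libraries for ARG1+ against ARG1-. It called 28 of 100 genes changed by 1 on the log2 scale and 57 of 100 changed by 2, and 2 unchanged genes. It called 0 genes where none was changed.

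The genes named are all members, all receptors, the called genes of each other pathway list (at most 6 by p) and the 3 genes most like each called member. Cell type markers are given as sums, and those named were picked with their values in view. So were *Plau* and the uncalled genes named from the hypoxia and integrated stress response lists. The members and lists were chosen with earlier results of these data known. The values of some items are not reported here. Alternatives were DESeq2 size factors, upper-quartile factors, no filter, a filter of 10 counts in every library, no sex term, a term for libraries numbered 13 to 16, DESeq2 1.42.0, each sex alone, the permutation test and leaving out each library.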

Additional observations from a re-analysis of the deposited data

Results flagged for a closer look

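In all, 19 sets of 6 libraries of 1 population, 17 of member levels and 2 of total counts, were scanned for 1 library that stood apart, by the gap between the highest or lowest value and its neighbour relative to the range. There were 4 such sets. Chance gives about 1 in 20 for values that vary continuously, but in 3 of the 4 sets 5 libraries had 0 counts, so that a single library with any count stands apart by construction and that rate does not apply. *Hgf* was at 0.0296 CPM in ARG1- male replicate 14, from 1 count, where the other 5 ARG1- libraries had 0. *Hgf* was at 4.18 CPM in ARG1+ female replicate 7, far above the other 5 ARG1+ libraries, of which the highest was at 1.67 CPM. Without this library *Hgf* was still called, as in all 12 fits with 1 library left out. *Bdnf* was at 0.0296 CPM in ARG1- male replicate 14, also from 1 count. *Gdf15* was at 0.687 CPM in ARG1- male replicate 5, from 26 counts, where the other 5 ARG1- libraries had 0.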

How the results depend on the processing

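*Hgf* was called higher in every setting that tested it except the male libraries alone, and it did not pass the filter of 10 counts in every library. *Tgfa* was called higher in every setting except each sex alone, where the adjusted p was 0.101 in females and 0.0878 in males. The count of members called, 2, was 1 with at least 10 counts in every library (*Tgfa*), 4 by DESeq2's Wald test (*Pdgfa* and *Gdf15* added, with 22.3% of all genes called), 5 by the unadjusted exact permutation test (33.3% of all genes), 2 in females alone (*Hgf* and *Gdf15*) and 0 by edgeR in males alone, where 3 had an unadjusted p under 0.05. Leaving out each library gave 2 to 3. The 2682 genes that differed became 986 in females alone, 1 in males alone (3103 at an unadjusted p under 0.05) and 1753 (without ARG1+ male replicate 12) to 2669 with 1 library left out. The 13 pathway genes called became 25 by DESeq2, 7 in females alone, 0 in males alone by edgeR (25 unadjusted) and 9 to 17 with 1 library left out. Fits of 1 sex have fewer libraries.

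Some members that were never called turned sign. *Pdgfb* was at -0.22 on the log2 scale in females alone and ran from -0.0092 to 0.15 with 1 library left out. *Vegfa* was at 2.66 with the term for libraries numbered 13 to 16, 2.35 with a block for each sex and number set and 0.18 in the permutation test, and ran from -1.44 to 1.71. *Hbegf* was at -0.014 without the sex term and -0.61 in females alone, and ran from -0.19 to 0.36. The causes were not tested. Sex and its difference in effect gave 0 members in every setting run. No paired analysis was possible because the labels do not say which ARG1+ and ARG1- libraries came from the same pool and the groups share no library numbers. A block for each sex and set of library numbers (1 to 12, or 13 to 16), added after seeing the data, is not a pairing; with it 2352 genes, 9 pathway genes and 2 members (*Hgf* and *Tgfa*) were called. Depth limits *Hgf*, *Vegfa*, *Gdf15* and *Bdnf*, whose libraries held 158 counts or fewer.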
